A study of Sus scrofa with 30 samples.

Results

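The miR-199 and miR-214 miRNAs of minipig plasma were followed before and after total body irradiation (TBI). They were taken as every row of the deposited count table named ssc-miR-199 or ssc-miR-214 with any letter and arm. The naming rule uses no measured value, but the family itself was picked with earlier results of these data known. This gave 5 rows of 411, namely ssc-miR-199a-5p, ssc-miR-199a-3p, ssc-miR-199b-5p, ssc-miR-199b-3p and ssc-miR-214, the last with no arm in its name. Of 30 libraries, the 24 with at least 1000 counts were used.

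The samples came from 3 male Göttingen minipigs, 4 months of age, bled at 10 time points each. All 3 received 2.2 Gy of 60Co TBI and were vehicle controls of a countermeasure study, so every animal also had dextrose injections and no unirradiated animal was included. The paper also describes ciprofloxacin and amoxicillin/clavulanate as supportive care at low neutrophil counts, and it reports that none of the 3 survived. The labels do not say which draws were taken under these antibiotics. C7 and C1 were drawn 7 days and 1 day before TBI, 0d was drawn 6 h after it, and the 7 later draws, from 1d to 20d, carry the day after TBI as their name. The pre-TBI group of C7 and C1 held 6 libraries. Early, which joins the draws of 0d through 7d, held 10. The Mid phase joins 10d with 14d and held 4, and Late (17d alone) and Late Regression (LR, 20d alone) held 2 each. These phases were drawn by the study from a PCA of the same libraries, so they are not independent of the values compared.

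A miRNA precursor is cut into a 5p and a 3p arm, and the arm that enters a silencing complex pairs with mRNAs mainly through its seed, bases 2 to 8. MiR-199 and miR-214 are known as miRNAs of mesenchymal cells such as fibroblasts and smooth muscle, and they have been studied in fibrosis. In mammals, miR-214 and 1 copy of miR-199a are made from the same long transcript, antisense to a dynamin gene. In the RefSeq gene table of the Sscrofa11.1 assembly, MIR214 and MIR199A-1 were next to each other inside DNM3, MIR199A-2 lay inside DNM2 and MIR199B inside DNM1, all of them dynamin genes. The seed is shown because miR-199a-5p and miR-199b-5p share it, so that these 5p arms of different genes address the same kind of site.
Seed of miR-199a-5p: CCAGUGU

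Depth differed with the phase. The used libraries held 24341 to 423325 counts before TBI, 172339 to 524084 in Early, 35762 to 103083 in Mid, 29159 to 63441 in Late and 401408 to 550316 in LR. The 6 unused libraries, minipig 3 from 3d onwards, held 0 to 17 counts in all and 0 for each of the 5 miRNAs, so every value after 1d rests on 2 animals. Libraries of minipig 1 at C7, 10d and 17d and of minipig 2 at 10d held under 60000 counts. At 17d in minipig 1 each of the 5 miRNAs had 5 or 6 counts, where the lower quartile of all rows was 6 counts and the leading row, ssc-miR-9850-5p, took 12.6% of the library. Plasma is cell-free and the values are relative within a library. Fewer source cells and less miRNA released per cell therefore cannot be told apart. Separate blood draws make the samples, but draws of 1 animal are not independent animals, and p-values without an animal term treat them as if they were.

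The 5 miRNAs together took a small share of each library. Their summed share was 0.148% to 0.367% before TBI (median 0.246%), 0.104% to 0.436% in Early (median 0.245%), 0.0810% to 0.379% in Mid, 0.0995% and 0.246% in Late and 0.138% and 0.545% in LR. The lowest share was at 10d in minipig 1 and the highest at 20d in minipig 2.

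Within libraries, the 5 miRNAs had a stable order of counts. Over the 24 libraries ssc-miR-214 had 6360 counts, ssc-miR-199a-5p 4594, ssc-miR-199b-3p 2515, ssc-miR-199a-3p 2377 and ssc-miR-199b-5p 715. Mature miRNAs are of nearly equal length, so counts can be compared between them, apart from bias of the library kit. MiR-214 was above miR-199a-5p in 20 of 24 libraries, and miR-199a-5p was above miR-199a-3p in 21 and above miR-199b-5p in 23. The median library placed miR-214 above 62.4% of all rows, miR-199a-5p above 56.7%, the 3p arms above 39.3% and 38.8% and miR-199b-5p above 11.07%. MiR-214 and miR-199a-5p, next to each other in this order, overlapped before TBI, with 526.1 to 1100 and 491 to 922 CPM (counts scaled to a library of 1e6 counts, with TMM factors).

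The 3p arms of miR-199a and miR-199b were nearly 1 measurement. Their counts were equal in 4 of 24 libraries and differed by at most 24 counts, and the ratio of miR-199b-3p to miR-199a-3p lay between 0.862 and 1.22. The spread between both rows was under that of counting (chi-square per degree of freedom 0.229 over 24 libraries), where independent counts would give about 1 on average. In human and mouse both genes give the same 3p arm, and it is uncertain how the authors' counting assigned reads that fit either row. The 5p arms differ outside the seed and had unlike counts, with miR-199b-5p at 0.111 to 0.333 of miR-199a-5p before TBI. They are read below as separate measurements, and the 3p rows as 1.

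**Figure D1:**
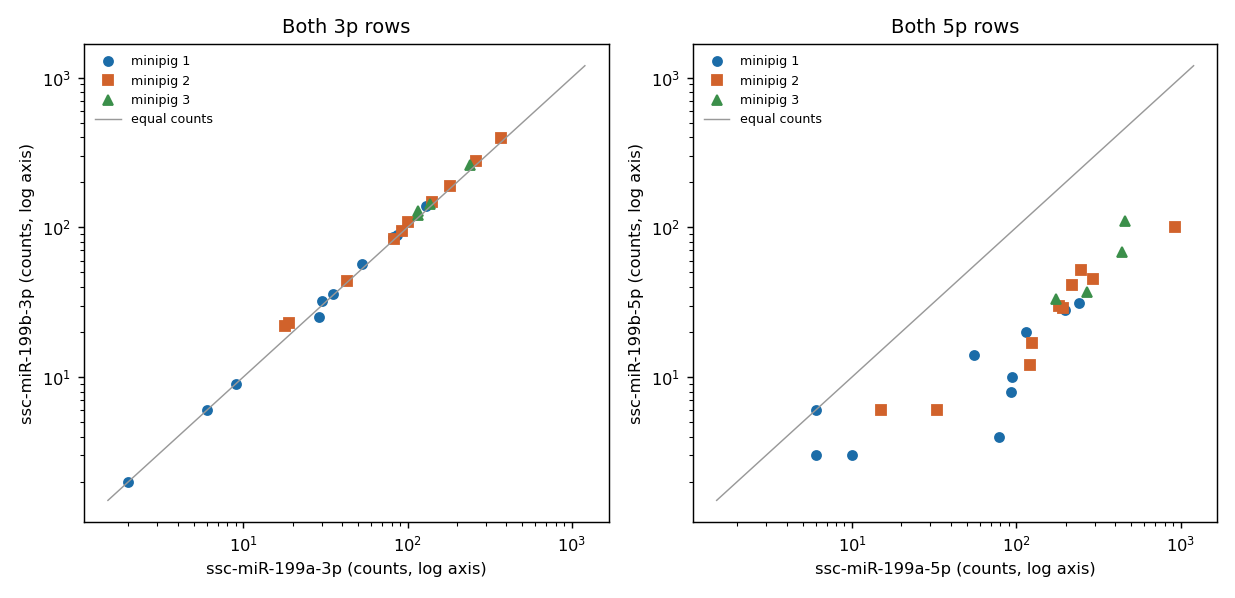
Counts of the paired rows in the 24 libraries, with 1 point per library and minipig marked by colour and shape, on log axes. The 3p rows follow the line of equal counts, while miR-199b-5p lies below miR-199a-5p in 23 of 24 libraries.

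Whether plasma levels differed between phases and baseline was asked with 1 edgeR fit over all 411 rows. None of the 5 miRNAs passed at Early, Mid, Late or LR, either at an adjusted p under 0.05 or at the study's own unadjusted threshold of 0.05. Over these 20 comparisons log2 fold changes ran from -0.80 to 0.56, the standard errors lay between 0.27 and 0.59, and no adjusted p was outside 0.38 to 0.98. DESeq2 also called 0 of the 20 at either threshold. The paper itself names miR-199b-5p among its conserved miRNAs. It called these in at least 1 phase at the unadjusted threshold, in its own fit. For the whole table, the adjusted threshold was passed by 0% of rows for Early, 0% for Mid, 4.38% for Late and 0% for LR. The unadjusted threshold was passed by 18.7% of rows for Early, 5.35% for Mid, 22.6% for Late and 5.6% for LR. With 2 to 10 libraries a phase, differences under about 2 standard errors were not detectable even at the unadjusted threshold. The adjusted threshold asks for larger ones, and the absence of a call does not show equal levels.

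**Figure D2:**
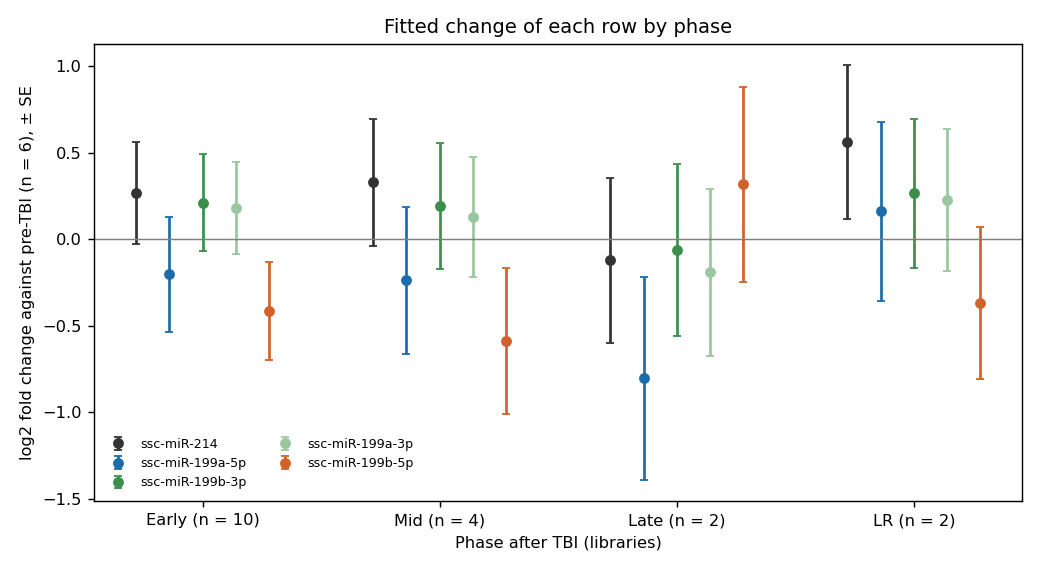
Log2 fold change of each of the 5 miRNAs at each phase against the 6 pre-TBI libraries, from the edgeR fit; points are estimates and bars are ± 1 SE. MiR-214 lies above 0 at Early, Mid and LR and miR-199b-5p below 0 at the same phases, and no point passed the test. Without minipig 3 the miR-199b-5p values at these phases were -0.05, -0.25 and 0.0025.

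MiR-214, the most abundant of the 5, had 526.1 to 1100 CPM before TBI (median 816, n = 6). At Early it had 560 to 1490.3 CPM (median 968, n = 10). The Mid libraries had 499.04 CPM in minipig 1 and 863 CPM in minipig 2 at 10d, and 1242 and 1502 CPM at 14d. Both 14d libraries were thus above every pre-TBI library, while those of 10d were not. At 17d minipig 1 had 237 CPM, the lowest of its 24 values and resting on 5 counts, and minipig 2 had 1209 CPM. At 20d minipig 1 had 748 CPM and minipig 2 had 1683 CPM, the highest value of any of the 5 miRNAs. At 17d the animals thus lay on opposite sides of the pre-TBI range, and at 20d minipig 1 was within it and minipig 2 above. Against the mean of the same animal before TBI, miR-214 was higher in 13 of 18 libraries after TBI, including 8 of 10 at Early. The fitted log2 fold changes were 0.26 ± 0.30 (SE) for Early, 0.33 ± 0.37 for Mid, -0.12 ± 0.48 for Late and 0.56 ± 0.45 for LR (adjusted p = 0.59, 0.97, 0.93 and 0.61). Without the 4 shallow libraries the Late value was 0.58 (adjusted p = 0.56).

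MiR-199a-5p, the other abundant product, had 491 to 922 CPM before TBI (median 771, n = 6), the tightest baseline of the family with miR-214 (SD of log2 CPM 0.36 and 0.35, against a median of 0.55 over all rows). At 0d the 3 minipigs had 346, 547 and 390 CPM, each below the mean of its own baseline. Early as a whole spanned 346 to 913 CPM (median 664, n = 10), with 5 libraries above and 5 below their own baseline. At 10d minipig 1 had 142.6 CPM, from 6 counts (95% exact Poisson interval 2.2 to 13.1 counts), and minipig 2 had 350.0 CPM, from 15 counts (8.4 to 24.7 counts). Both were below every pre-TBI library. At 14d the same animals had 846 and 1063 CPM, both above their own baseline. At 17d they had 285 and 518 CPM, and at 20d 341 and 1280 CPM. The fitted log2 fold changes were -0.20 ± 0.33 (SE) for Early, -0.24 ± 0.42 for Mid, -0.80 ± 0.59 for Late and 0.16 ± 0.52 for LR (adjusted p = 0.73, 0.98, 0.40 and 0.90). Without the 4 shallow libraries, both 10d libraries among them, the Mid value was 0.24 (adjusted p = 0.85).

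MiR-199b-5p, which shares the seed printed above, was the scarcest of the 5. It had 73.3 to 195 CPM before TBI (median 141.9, n = 6) and 37.0 to 135 CPM at Early (median 105, n = 10). At 10d it had 71.3 CPM in minipig 1 and 139.999 CPM in minipig 2, and at 14d 42.8 and 105 CPM. The 4 Mid values rest on 3 to 12 counts each, so counting error alone is large there. At 17d both animals had 6 counts, which gave 285 CPM in minipig 1 and 94.2 CPM in minipig 2. At 20d the values were 59.8 and 140.03 CPM. The value of 285 CPM was the highest of this miRNA, in the library in which all 5 miRNAs had 5 or 6 counts. The fitted log2 fold changes were -0.42 ± 0.28 (SE) for Early, -0.59 ± 0.42 for Mid, 0.32 ± 0.56 for Late and -0.37 ± 0.44 for LR (adjusted p = 0.38, 0.88, 0.78 and 0.72). Without the 4 shallow libraries the Late value was -0.49 (adjusted p = 0.79). Against the mean of the same animal before TBI, 4 Early libraries were above and 6 below, 2 and 2 at Mid, and 1 and 1 at LR. Minipig 3 is in the baseline but has no used library after 1d. Without it the fitted values were -0.05 at Early, -0.25 at Mid and 0.0025 at LR. With the animal as a block they were -0.35, -0.51 and -0.31.

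Over all 6 pre-TBI libraries the 3p rows had a wider spread than the 5p rows (SD of log2 CPM 0.80 and 0.85, against 0.36 and 0.51). MiR-199a-3p had 98.3 to 484 CPM before TBI (median 300.0, n = 6) and miR-199b-3p 98.3 to 512 CPM (median 314), the lowest in both cases being C7 of minipig 1 with 2 counts. The next lowest pre-TBI values were 242 and 209 CPM, so the wider spread depends largely on that 1 library. At Early they had 189 to 592 CPM (median 341) and 201 to 630.0 CPM (median 349), with 2 of the 10 libraries above the pre-TBI range in either row. Mid spanned 213.9 to 443 CPM for miR-199a-3p and 213.9 to 537 CPM for miR-199b-3p. Late held 283 and 285 CPM of miR-199a-3p, and LR 245 CPM in minipig 1 and 510.2 CPM in minipig 2. Fitted log2 fold changes of miR-199a-3p were 0.18 ± 0.27 (SE) for Early, 0.13 ± 0.35 for Mid, -0.19 ± 0.48 for Late and 0.23 ± 0.41 for LR. Those of miR-199b-3p were 0.21 ± 0.28 (SE), 0.19 ± 0.36, -0.06 ± 0.50 and 0.27 ± 0.43. No adjusted p of either row was below 0.67.

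**Figure D3:**
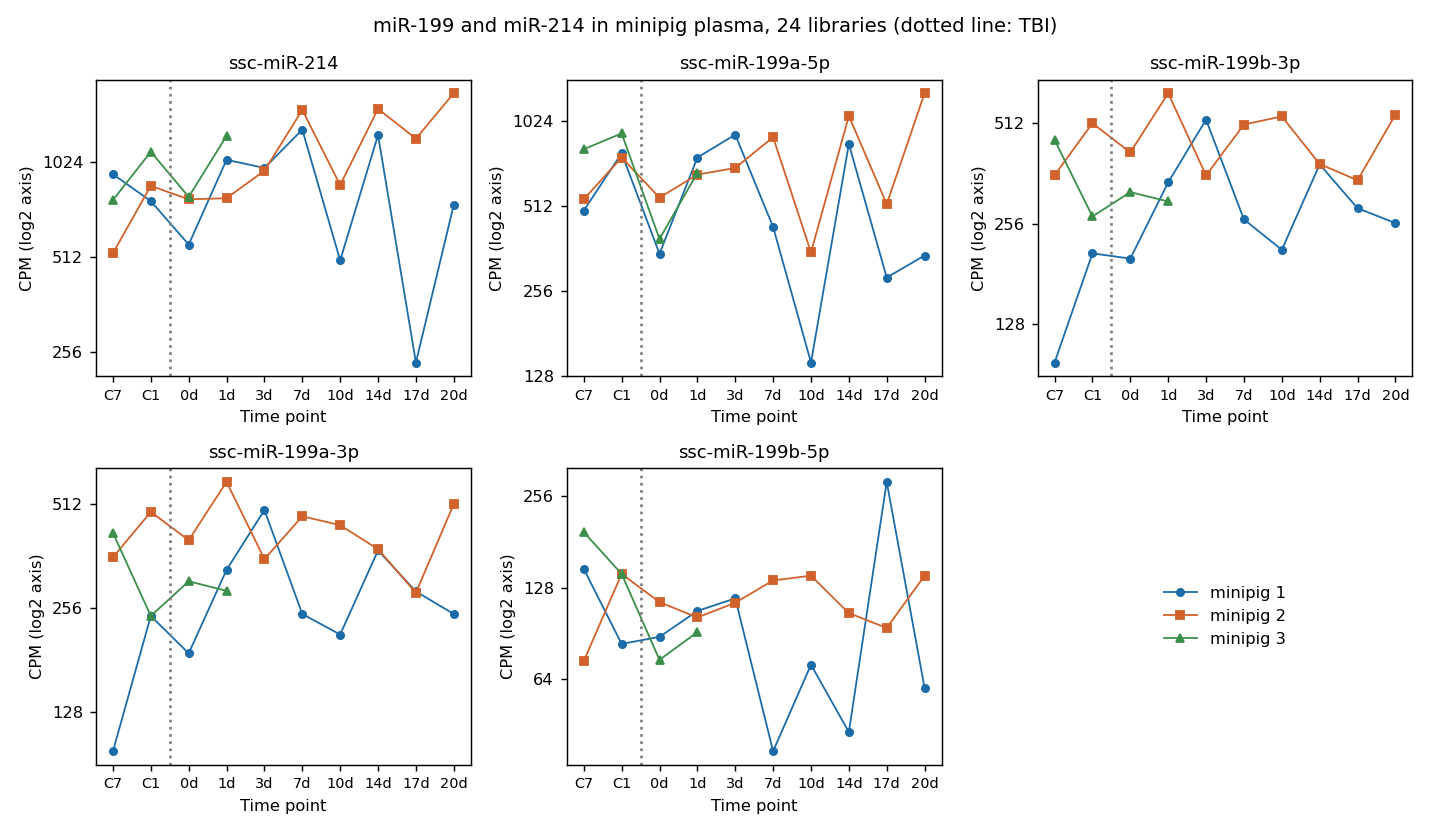
CPM of each miRNA (log2 axis) at each time point, with 1 point per library and a line per minipig; the dotted line marks TBI. MiR-199a-5p is low in both animals at 10d (142.6 and 350.0 CPM) and above baseline at 14d (846 and 1063 CPM), and minipig 1 at 17d departs from minipig 2 in miR-214 and miR-199b-5p.

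Single time points were tested in a fit with 9 groups. None of the 40 comparisons passed at the adjusted threshold, and 1 passed at the unadjusted one, miR-199a-5p at 10d, with a log2 fold change of -1.56 ± 0.51 (SE) and an adjusted p of 0.61. DESeq2 called 0 at the adjusted threshold and 2 at the unadjusted one, miR-199a-5p at 10d and also at 0d, where edgeR gave -0.76 ± 0.38 (SE, adjusted p = 0.47). For miR-214 the largest differences were 0.75 ± 0.41 (SE) at 7d and 0.74 ± 0.41 at 14d (adjusted p = 0.62 and 0.60). With the animal as a block, 4 of the 40 passed at the unadjusted threshold and 0 at the adjusted one. The 4 were miR-199a-5p at 0d (-0.78 ± 0.34, SE) and 10d (-1.57 ± 0.48) and miR-214 at 7d (0.86 ± 0.39) and 14d (0.84 ± 0.39), with adjusted p from 0.34 to 0.44. The share of all rows in the blocked fit is not given here, so the 4 are not read as set apart from other rows. Without minipig 2 the log2 fold change of miR-214 at 17d was -2.20, from the single library with 5 counts. Without minipig 1 the Late value of miR-214, which is 17d alone, was 0.52. A group of 1 library has no spread of its own, so no call is read from these fits. Late and LR are 1 time point each, so 17d and 20d repeat their values.

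The share of all rows past the unadjusted threshold was 8.52% for 0d, 12.2% for 1d, 8.52% for 3d, 8.27% for 7d, 7.3% for 10d, 9% for 14d, 23.8% for 17d and 7.06% for 20d. That past the adjusted one was 0% for each of 0d, 1d, 7d and 10d, 1.22% for 3d, 0.243% for 14d, 4.87% for 17d and 0.73% for 20d. These shares are of the fit without an animal term, and its single call at the unadjusted threshold among 40 comparisons is below them. The 10d value rests on 6 and 15 counts, and both 10d libraries are among the 4 shallow ones. With every library thinned to the total of the smallest, which also leaves fewer counts to test, the log2 fold change of miR-199a-5p was -1.21 ± 0.60 (SE, adjusted p = 0.79) at 10d and -0.99 ± 0.50 (adjusted p = 0.64) at 0d. None of the 40 then passed at the unadjusted threshold, and 1 did when the block was added, miR-199a-5p at 0d (-0.97 ± 0.47, adjusted p = 0.58).

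The step from 10d to 14d was compared after its values had been seen. MiR-199a-5p was higher at 14d by 1.95 ± 0.58 (SE) on the log2 scale, with an adjusted p of 0.27, and it was the 1 member past the unadjusted threshold in that contrast. MiR-214 differed by 1.0097 ± 0.54 (SE, adjusted p = 0.38), and the 3p rows by 0.19 ± 0.59 and 0.04 ± 0.62 (adjusted p = 0.87 and 0.98). MiR-199b-5p went the other way, by -0.49 ± 0.76 (SE, adjusted p = 0.74). In this contrast 0% of rows passed at the adjusted threshold and 10.7% at the unadjusted one.

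Differences between consecutive phases and between the baseline draws were also tested. None of the 5 miRNAs passed at either threshold in Mid against Early, Late against Mid or LR against Late, with log2 differences of -0.68 to 0.97 and adjusted p of 0.31 to 0.97. DESeq2 gave 0 calls as well. The share of all rows past the adjusted threshold was 0%, 4.62% and 0.73% in these 3 contrasts, and past the unadjusted one 23.1%, 17.5% and 32.1%. Between C1 and C7 the 5 miRNAs differed by -0.15 to 0.40 on the log2 scale and none passed (adjusted p = 0.997 for each). There 0% of rows passed at the adjusted and 0.73% at the unadjusted threshold, and DESeq2 called 0 of the 5 at either.

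Ratios between 2 miRNAs of the same library do not depend on scaling between libraries, and they were compared with 2-sided exact permutation tests within minipig. Of the 8 ratio tests none passed after Benjamini-Hochberg adjustment over the 8. MiR-214 and miR-199a-5p had a ratio of 0.955 to 1.86 before TBI (median 1.06). Only MIR199A-1 lies next to MIR214 on the genome. The miR-199a-5p row may also hold reads of MIR199A-2 inside DNM2, so the ratio is not one of neighbouring genes alone. The upper end was C7 of minipig 1, with 19 and 10 counts, and the other 5 pre-TBI libraries lay at or below 1.19. After TBI the ratio was above the mean of the animal's own baseline in 16 of 18 libraries and above all pre-TBI libraries in 6. At 0d it was 1.61, 1.42 and 2.03 in minipigs 1, 2 and 3. At 7d it was 2.99 and 1.66 in minipigs 1 and 2, and at 10d it was 3.31 and 2.42. At 14d both animals were closer to baseline, with 1.47 and 1.41. The 2 libraries at or below baseline were minipig 1 at 3d (1.07) and at 17d (0.846). The log2 ratio was higher at Early than before TBI by 0.47 (10 against 6 libraries, exact permutation p = 0.050, adjusted p = 0.13). It was higher at Mid by 0.76 (4 against 4 libraries, exact permutation p = 0.17, adjusted p = 0.33).

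The 5p to 3p ratio of miR-199a was 1.503 to 4.20 before TBI (median 2.56, n = 6). After TBI it was 0.684 to 2.79, and 7 of 18 libraries lay below every pre-TBI library and 0 above. At 0d the ratios were 1.82, 1.36 and 1.28, and at 10d they were 0.684 and 0.795, the only libraries in which miR-199a-3p had more counts than miR-199a-5p. In minipig 1, with 4.20 and 3.20 before TBI, all 8 later libraries were lower. In minipig 2, with 1.503 and 1.56 before TBI, the ratio was lower at 0d, 1d (1.11) and 10d and higher at 3d (1.96), 7d (1.90), 14d (2.79), 17d (1.81) and 20d (2.51). In minipig 3, with 1.92 and 3.80 before TBI, both later libraries were below the mean of its baseline (1.28 at 0d and 2.33 at 1d). The log2 ratio was lower at Early by -0.53 (10 against 6 libraries, exact permutation p = 0.032, adjusted p = 0.13) and at Mid by -0.80 (4 against 4 libraries, exact permutation p = 0.28, adjusted p = 0.44). Without the 4 shallow libraries the Mid difference was 0.35.

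The same arm ratio of miR-199b was 0.210 to 1.40 before TBI (median 0.420), the value of 1.40 coming from 3 and 2 counts. It was 0.148 to 0.446 at Early, a log2 difference of -0.78 (10 against 6 libraries, exact permutation p = 0.027, adjusted p = 0.13). Of these 10 libraries 7 were below the mean of their own baseline and 3 above, the latter all in minipig 2 (0d, 3d and 7d). The Early log2 difference was -0.40 without minipig 1, -1.18 without minipig 2 and -0.74 without minipig 3. Without the 4 shallow libraries it was -0.45. At Mid the arm ratio of miR-199b was 0.123 to 0.368 (log2 difference -0.81, 4 against 4 libraries, exact permutation p = 0.44, adjusted p = 0.53). Since both 3p rows hold nearly the same counts, the arm ratios share a denominator and are not independent of each other. Neither can be read as the arm use of a single gene. The ratio of miR-199b-5p to miR-199a-5p, which share a seed, was 0.111 to 0.333 before TBI and 0.0909 to 0.261 at Early. At 10d it was 0.538 and 0.419, above all pre-TBI libraries in both animals, and at 14d it was 0.0566 and 0.103, below all of them. The counts behind the Mid ratios of miR-199b-5p were 3 to 12. The log2 differences were -0.20 at Early (exact permutation p = 0.47) and 0.11 at Mid (exact permutation p = 0.94). With 2 libraries at Late and at LR the test cannot reach a p under 0.111, so those phases are described only.

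**Figure D4:**
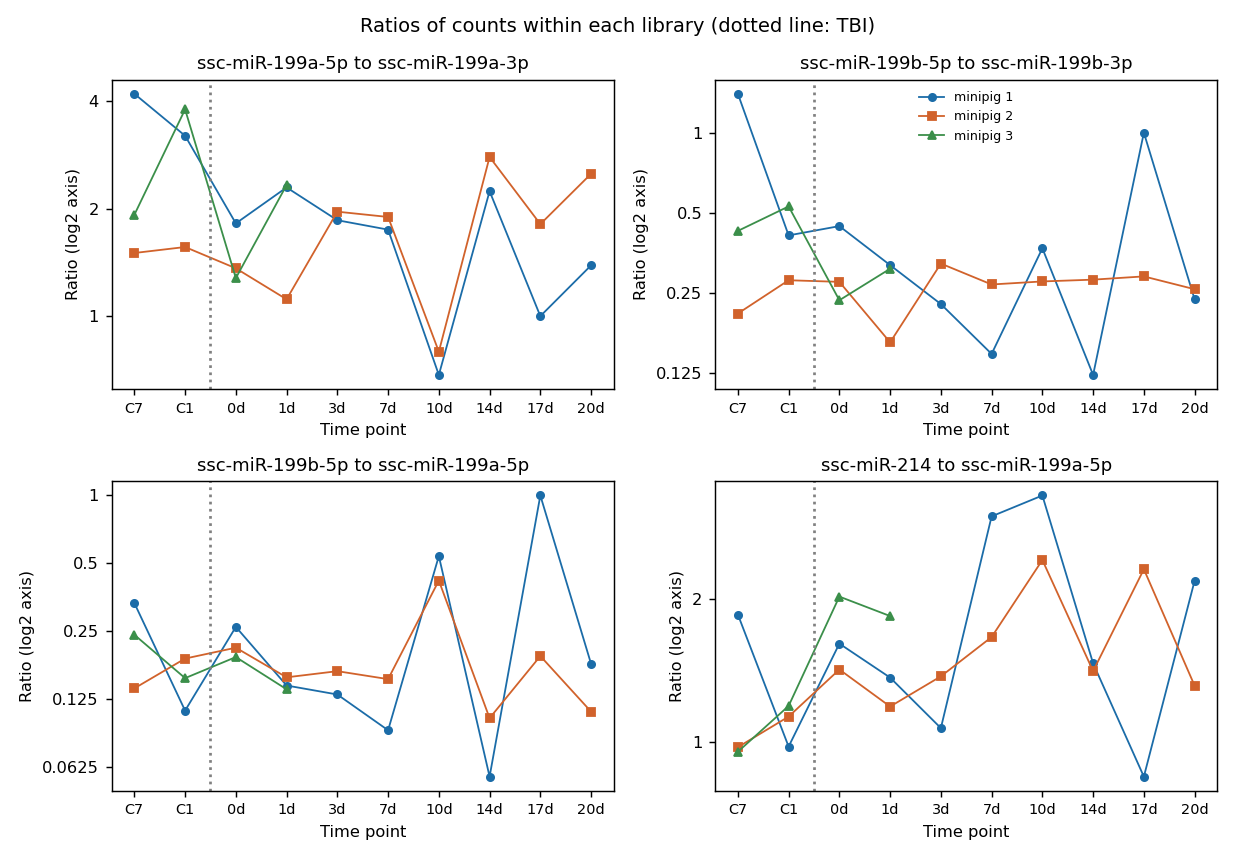
Ratio of counts (after adding 0.5) between paired miRNAs in each library, on log2 axes, with a line per minipig and the dotted line at TBI. The ratio of miR-214 to miR-199a-5p is above 2 in both animals at 10d, where the 5p to 3p ratio of miR-199a is below 1.

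The 5 miRNAs did not share 1 pattern over the 24 libraries. Pearson's r of log2 CPM, given as a description over libraries that share animals and differ in depth, was 0.99 between the 3p rows and 0.68 between miR-214 and miR-199a-5p. It was 0.48 between the arms of miR-199a, 0.18 between those of miR-199b and 0.17 between both 5p rows. MiR-199b-5p and miR-214 had an r of -0.26. Among rows outside the family, miR-214 was most like ssc-miR-210, the hypoxia-induced miRNA (r = 0.93), ssc-miR-99b (0.90) and ssc-miR-370 (0.90). MiR-199a-5p was most like ssc-miR-452 (0.82), ssc-miR-107 (0.80) and ssc-miR-103 (0.78), the latter pair being members of 1 family. MiR-199b-5p was most like ssc-miR-542-5p (0.68), ssc-miR-148b-3p (0.65) and ssc-miR-9804-5p (0.64). The 3p rows were most like ssc-miR-411 (0.67 for miR-199a-3p and 0.73 for miR-199b-3p) and ssc-miR-202-3p (0.65 and 0.70), with ssc-miR-500 (0.64) next for the former and ssc-miR-132 (0.66) for the latter.

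Other miRNAs linked to mesenchymal cells (miR-21, miR-22, miR-29, miR-100, miR-125, miR-140, miR-143, miR-145, miR-152 and miR-455) gave 18 rows. None of them passed at the adjusted threshold in any phase. At the unadjusted one, 0 were higher and 3 lower in Early, 1 higher and 1 lower in Mid, 3 higher and 0 lower in Late, and 1 higher and 1 lower in LR. Of all 411 rows, 18.7%, 5.35%, 22.6% and 5.6% passed it in these phases. The 3 of 18 rows are thus below the share of all rows in Early and in Late. In Mid and in LR, 1 row each way of 18 is above that share. Their median log2 fold change was -0.10, -0.20, 0.08 and -0.23 in that order, beside 0.02, 0.05, 0.08 and -0.01 over all 411 rows. The 5 miRNAs of the family had medians of 0.18, 0.13, -0.12 and 0.23.

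Markers of other sources were given the same description. The log2 ratio of ssc-miR-451 to ssc-miR-23a, a sign of red cell lysis, had a median of 0.83 before TBI (-1.16 to 3.43), 1.09 in Early (-0.32 to 3.76), -0.88 in Mid (-1.31 to 0.08), -0.86 in Late and 0.88 in LR. The erythroid list (3 rows) took 1.02% to 9.02% of counts before TBI, 0.827% to 7.06% in Early, 0.909% to 2.93% in Mid, 0.604% and 1.02% in Late and 1.31% and 1.67% in LR. The platelet-enriched list (9 rows) took 1.68% to 3.62% before TBI, 1.59% to 8.64% in Early, 0.929% to 2.75% in Mid, 0.751% and 1.25% in Late and 1.72% and 1.83% in LR. The leukocyte list (9 rows) took 0.869% to 9.90% before TBI, 0.278% to 3.57% in Early, 0.6005% to 10.97% in Mid and 0.319% and 2.61% in LR. At Late it took 15.3% in minipig 1 and 0.492% in minipig 2. No row of these lists was at 0 in any phase, and none passed at the adjusted threshold. The liver (5 rows), muscle (8 rows) and epithelial (1 row) lists also had 0 rows past it. At the unadjusted one, the share of all rows was 18.7% in Early, 5.35% in Mid, 22.6% in Late and 5.6% in LR. The leukocyte list had 1 row lower in Early, 1 lower in Mid, 2 higher in Late and 0 in LR. The platelet-enriched list had 1 higher and 1 lower in Early and again in Late, and 1 higher in each of Mid and LR. The erythroid list had 1 row lower in Mid and the same number in Late, and 0 in the other phases. The muscle list had 1 higher and 2 lower in Early, 1 higher in Late and 1 lower in LR, and the liver list 1 lower in Early and 1 each way in LR. The epithelial row had 0. The median log2 fold change of leukocyte rows was -0.37 (Early), 0.06 (Mid), 1.43 (Late) and -0.70 (LR). In the same order, platelet-enriched rows had medians of 0.24, 0.05, -0.61 and 0.14. Erythroid rows had 0.0075, -1.50, -1.65 and -0.92, beside 0.02, 0.05, 0.08 and -0.01 over all rows. The Late medians rest on 2 libraries, in which the leukocyte share was 15.3% and 0.492%. The part of these markers in the levels and ratios above was not tested.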

How the data were processed

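Plasma small RNA libraries (TruSeq kit, NextSeq) were sequenced from 3 minipigs. The authors trimmed reads with Cutadapt, aligned them with Bowtie (Bowtie2 2.2.3.0 in the submitters' processing notes) to the pig genome ssc5 and miRBase, quantified known miRNAs with miRDeep2 and deposited raw counts, unnormalized, per miRNA and library. Strand and multi-mapping rules are not given in the sources used here. The methods name a pool of 3 pre-TBI time points, while the labels hold C7 and C1, which were used. 0 columns were left unmatched.

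edgeR 4.0.16 (R 4.3.3) quasi-likelihood tests used TMM, the filter CPM above 0.5 in at least 3 libraries (passed by all 411 rows), 5, 9 or 10 groups in 1 fit and no animal term, with Benjamini-Hochberg adjustment over the 411 rows. SEs were taken as the absolute log2 fold change over the root of F. Log2 CPM used a prior count of 2. Ratios used counts plus 0.5, with time labels moved within minipig, and Mid tests left out minipig 3, which has no Mid library. DESeq2 1.42.0 was an alternative. The procedure was tested on simulated data. Python 3.11.15, numpy 2.4.6, pandas 2.3.3 and scipy 1.17.1 were used. Intervals cover counting error only, as duplicates from PCR cannot be removed here. No 2 libraries of a phase agreed within counting noise (chi-square per degree of freedom 21.8 or more). The labels give the animal of each library. Deviations from phase means correlated by 0.17 on average between libraries of 1 minipig in different phases, and by -0.10 between minipigs.

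Every miR-199 and miR-214 row is named, with the 3 rows most like each by r over the 24 libraries, rows of the marker lists past the adjusted threshold and the leading row of a library that stands apart. ssc-miR-451 and ssc-miR-23a are named as the lysis ratio. Members and lists were chosen with earlier results of these data known.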

Additional observations from a re-analysis of the deposited data

Results flagged for a closer look

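Among 27 sets of 4 to 10 libraries (5 miRNAs and 4 ratios at pre-TBI, Early and Mid), 2 held a library far from the others, where chance gives about 1 in 20. MiR-199b-5p at Early had its lowest log2 CPM, 5.48, at 7d in minipig 1, from 8 counts (95% exact Poisson interval 3.5 to 15.8 counts). The log2 ratio of miR-214 to miR-199a-5p before TBI was highest, at 0.89, in C7 of minipig 1, the library with the lowest total.

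At 3 of the steps between consecutive time points of the 5 miRNAs, all libraries changed sides of their own pre-TBI mean. Such splits were not counted over all rows. With 2 or 3 libraries a time point they can arise by chance, so they are given as a description only. For miR-199a-5p the mean change was 2.04 higher on the log2 scale at 14d than at 10d, with both animals below at 10d and above at 14d. From 14d to 17d it differed by -1.28. For miR-199b-5p it was 0.40 higher at 3d (2 libraries) than at 1d (3 libraries), where minipig 2 was only -0.0050 from its own mean. In edgeR contrasts chosen after these values had been seen, the adjusted p was 0.27, 0.16 and 0.99 for these steps.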

How the results depend on the processing

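Mid and Late libraries held 29159 to 103083 counts, and Late and LR hold 2 libraries each, so both depth and the number of animals limit these values. No adjusted call arose among the phase, consecutive-phase and C1 against C7 comparisons under any alternative. Leaving out each minipig in turn gave 0 to 1 adjusted calls over the 8 time points. The 1 call was miR-214 at 17d without minipig 2 (-2.20, adjusted p = 0.030), which rests on the single 17d library of minipig 1 with 5 counts and assumes that it varies like the other groups. At the unadjusted threshold, leaving out a minipig gave 0 to 1 calls at each of Early, Mid, Late and LR, 0 to 2 for Late against Mid and for LR against Late, and 1 to 9 over the time points, the 9 without minipig 2. A replicate block for the animal gave 4 unadjusted calls over the time points in place of 1 and changed no adjusted call. The 4 were miR-199a-5p at 0d and 10d and miR-214 at 7d and 14d. Over the time points DESeq2 gave 2, only the groups compared 3, C7 as the baseline 0, C1 as the baseline 2, thinned counts 0, and fits without the 4 libraries under 60000 counts, chosen after seeing the data, 3. The share of all rows is not given beside the counts of these alternatives, so they are not read as results about the members.

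Of the phase values of single miRNAs under alternatives, 293 kept their direction and 27 reversed, and the cause was not tested. Leaving out minipigs, the log2 fold changes ran from -0.35 to 0.44 for miR-199a-3p at LR, from -0.43 to 0.016 for miR-199a-5p at Early and from -1.34 to 0.76 at LR, from -0.0008 to 0.36 for miR-199b-3p at Early and from -0.34 to 0.45 at LR, from -0.64 to 0.65 for miR-199b-5p at Late and from -1.46 to 0.0025 at LR, and from -2.20 to 0.52 for miR-214 at Late and from -0.42 to 1.06 at LR. Thinning turned miR-199a-3p to -0.13 at Mid and -0.0002 at LR, and miR-199b-3p to -0.21 at Mid and 0.17 at Late; with the block these were -0.10, -0.0038, -0.13 and 0.23. Library size alone gave -0.073 for miR-199b-5p at Late, and C1 as the baseline -0.017 for miR-199a-5p at LR. Without the 4 shallow libraries miR-199a-3p was -0.040 at Early and -0.012 at LR, miR-199a-5p 0.24 at Mid and -0.0009 at LR, miR-199b-3p -0.018 at Early and -0.0051 at Mid, miR-199b-5p -0.49 at Late and miR-214 0.58 at Late.

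Among the ratios no alternative passed the adjusted threshold, 50 values kept their direction and 6 reversed. Leaving out minipigs gave -1.83 to 0.20 for the arms of miR-199b at Mid and -0.14 to 0.36 for miR-199b-5p to miR-199a-5p at Mid. The latter ratio was -0.18 at Mid with C7 as the baseline, 0.10 at Early with C1 and -0.91 at Mid without the 4 shallow libraries, which also turned the arm ratio of miR-199a at Mid to 0.35.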
